A study of Homo sapiens with 12 samples.

Results

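The HUSH complex and the H3K9 methylation machinery were followed through 10 genes: the HUSH subunits TASOR (older symbol FAM208A), MPHOSPH8 and PPHLN1, their partners MORC2, SETDB1 and ATF7IP, the corepressor TRIM28, and the H3K9 methyltransferases EHMT1, EHMT2 and SUV39H1. They were chosen by name, with earlier results of these data known, and the rows of all 10 were found among the 58780 genes of each library. RNA came from HEK293, a human embryonic kidney line, in its Flp-In T-REx form, which carries a genomic site for inserting transgenes and a tetracycline repressor. Cells were transfected with siRNA and harvested on the second day. The 4 groups, with 3 libraries each, were control (negative control siRNA), SAFB1 KD (siRNA against SAFB, the gene of SAFB1), SLTM KD (siRNA against SLTM) and triple KD (siRNAs against SAFB, SAFB2 and SLTM together). Every group received siRNA, and the single knockdowns also received negative control siRNA so that the total amount equalled that of triple KD. Libraries of cells given SAFB2 siRNA alone were not analysed here. None of the 10 genes was targeted, so their RNA levels are a readout and not a check of the treatment.

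Histone H3 methylated at lysine 9 (H3K9me) marks heterochromatin and silenced transposable elements. HUSH, formed by TASOR, MPHOSPH8 and PPHLN1, is recruited to long intronless transcription units, among them young L1 retrotransposons, and works with MORC2 and the methyltransferase SETDB1 to spread the trimethyl form of the mark. The SAFB proteins bind RNA, preferring purine-rich sequences. In another human cell line, given L1 plasmids, the study depleted them and HUSH. It aimed to separate control of L1 during transcription from control after it.

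The siRNA sense strands are shown because the seed of an siRNA can also pair with other transcripts. Each is written 5′ to 3′, and the capitals mark bases 12 to 18, which are the bases that pair with the guide strand's seed (its bases 2 to 8).
SAFB: ggaccaagaugAUCAGAAatt
SAFB2: ggacggucgugAUGGAUAatt
SLTM: gcauuagaauaAUUCGUGatt
On GRCh38 with GENCODE v44, the first 19 bases matched chr19:5654145-5654163 (+ strand) in SAFB, chr19:5598848-5598866 (- strand) in SAFB2 and chr15:58890402-58890420 (- strand) in SLTM, all in coding sequence. No transcript of the 10 genes held a full match, and the longest shared run with any of them was 9 bases for the SAFB and SLTM siRNAs and 8 for that of SAFB2. The 7-base words in capitals occurred in 16.0%, 9.57% and 2.09% of 19195 canonical 3′ UTRs, respectively, and in 0 of the 10 canonical 3′ UTRs of these genes. The absence of a word in a 3′ UTR says nothing about pairing elsewhere in the transcript.

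The siRNA targets followed the labels in every library. SAFB stood at 19.5% of its control mean in SAFB1 KD and at 16.5% in triple KD. In SLTM KD, SLTM was at 17.7% of control, and triple KD left 21.6% of SLTM and 23.1% of SAFB2. In SAFB1 KD, SAFB2 was at 166% and SLTM at 120% of control, so RNA of both other family members was more abundant in that group. Library totals ran from 56856228 to 75533510 counts. Mitochondrially encoded RNAs took 3.31 to 3.68% of the counts in control and SAFB1 KD but 3.89 to 4.51% in SLTM KD and triple KD. The 6 markers of HEK293-like cells summed to 1456 to 1466 CPM (read counts scaled to a common library size by TMM) in triple KD and to 1513 to 1593 CPM elsewhere, while 5 of 5 leukocyte, 5 of 6 colon, 4 of 5 squamous and 4 of 5 fibroblast markers had means under 1 CPM in each group. The exceptions were the colon marker CDX2, the fibroblast marker COL1A1 and the squamous marker SFN. Their means in control were 28.7, 12.9 and 3.97 CPM, respectively. VIM made up most of the HEK293-like sum, with means of 1094 CPM in control and 1077 in triple KD. The largest difference between these groups was in NEFL, at 195 and 147 CPM, while KRT18 was slightly higher in triple KD, at 135 and 138 CPM. The part of these differences in the results was not tested. In bulk RNA, fewer cells of a type and less RNA per cell cannot be told apart.

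All 10 genes were well expressed, with 3187 to 69077 counts per library. Levels can be compared between genes only per length, and per kilobase of the canonical transcript TRIM28 led in control cells with 269 ± 2.19 CPM per kb (SD, n = 3). PPHLN1 came next with 52.6 ± 1.15, EHMT2 with 33.1 ± 0.356 and SUV39H1 with 23.0 ± 0.439 CPM per kb. The PPHLN1 value rests on a canonical transcript of 1.859 kb, against 12155 bases covered by the exons of all its transcripts. These lengths were 5.095 kb and 22188 bases for EHMT1, and 5.657 kb and 10817 bases for MORC2. The order of the genes given here therefore rests on the canonical lengths. MORC2 (18.0 ± 0.185), SETDB1 (17.1 ± 0.156), EHMT1 (16.2 ± 0.252) and MPHOSPH8 (15.9 ± 0.445 CPM per kb) followed. ATF7IP, with 11.2 ± 0.110, and TASOR, with 10.1 ± 0.0808 CPM per kb, were lowest. The libraries of EHMT1 and MPHOSPH8 overlapped in this order, and those of the other neighbours did not.

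Triple KD moved the members in opposite directions. RNA of TASOR, MORC2, SETDB1, ATF7IP and EHMT1 rose by 1.14-fold to 1.22-fold, TRIM28 rose by 1.05-fold, and MPHOSPH8 alone among the 10 fell, to 0.833 of control. PPHLN1, EHMT2 and SUV39H1 did not pass the test (edgeR quasi-likelihood test, Benjamini-Hochberg adjusted p under 0.05 over 26688 genes). The 7 called members must be read against the background, since 40.3% of all genes tested were called in this comparison, 19.4% higher and 20.9% lower. Among the 9970 genes whose mean reached 10 CPM, as it did for all 10 members, 71.2% were called, so a share of 7 in 10 is what genes of this level showed in general. Called higher were 6 of the 10 members, against 33.9% of genes of that level, and called lower was 1, against 37.3%. The median log2 fold change of the members was 0.13, beside -0.004 over all genes tested. The control and triple KD libraries did not overlap in 8 members, against 48.1% of all genes and 76.5% of those of similar level. No member changed by more than 2-fold in any knockdown by edgeR's glmTreat, where 0 members also passed at an unadjusted p under 0.05, and this test called 0.955% of all genes in triple KD, 0.0262% in SAFB1 KD and 0.00749% in SLTM KD.

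**Figure D1:**
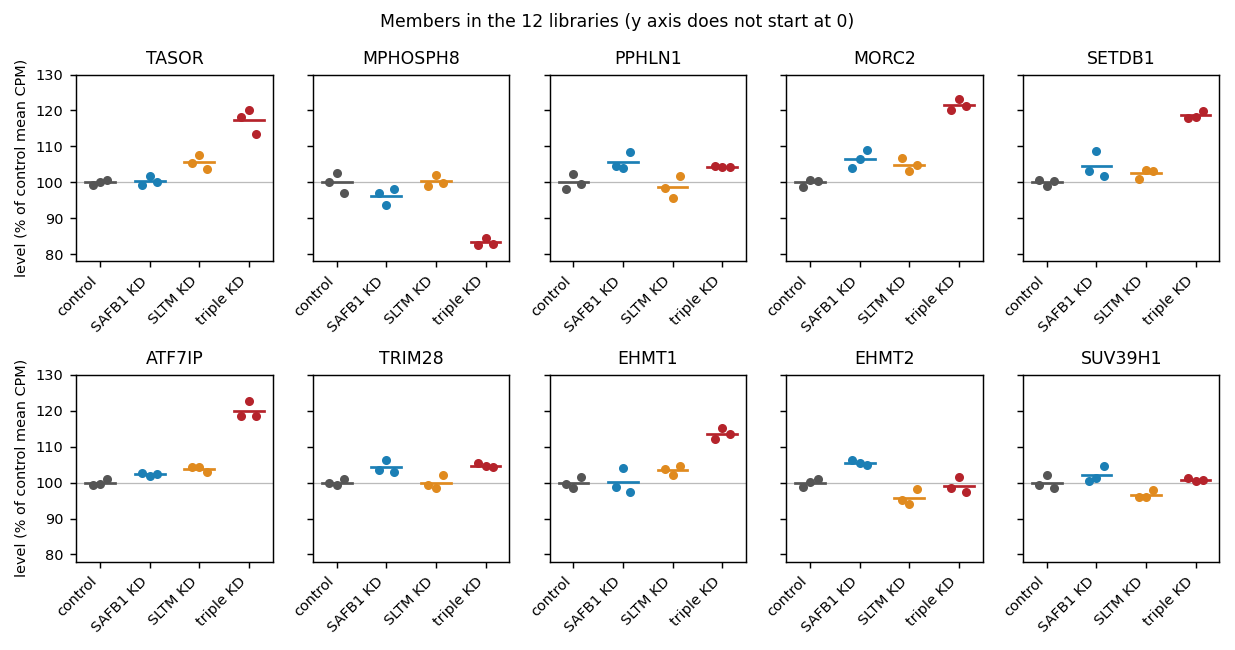
Level of each of the 10 genes in the 12 libraries, as a percentage of its control mean CPM (y axis, starting above 0), by group (x axis). Points are libraries and lines are group means (n = 3). TASOR, MORC2, SETDB1, ATF7IP and EHMT1 were highest in the 3 triple KD libraries, and MPHOSPH8 was lowest there.

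Among the core HUSH subunits, TASOR is the scaffold that holds the complex together. It lies at chr3:56620132-56683265 on the - strand, with 24 exons in its canonical transcript. Its level was 82.1, 82.9 and 83.5 CPM in the control libraries, 82.2, 84.2 and 82.8 in SAFB1 KD, 87.2, 89.1 and 85.9 in SLTM KD, while triple KD had 97.9, 99.4 and 94.0 CPM. The triple KD libraries were all above every other library, SLTM KD lay between, and SAFB1 KD overlapped control. The log2 fold change against control was 0.23 ± 0.0258 (SE) in triple KD (adjusted p = 1.91e-11), 0.08 ± 0.0261 in SLTM KD (adjusted p = 0.0484) and 0.005 ± 0.0261 in SAFB1 KD (adjusted p = 0.963).

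MPHOSPH8 (MPP8) carries a chromodomain that binds methylated H3K9. The gene is at chr13:19633659-19673441 on the + strand and has 14 canonical exons. Counts gave 67.7, 69.4 and 65.7 CPM in control, 65.5, 63.4 and 66.3 in SAFB1 KD, 66.9, 69.1 and 67.5 in SLTM KD, whereas triple KD gave 55.8, 57.1 and 56.1 CPM. All 3 triple KD libraries were below the other 9. Both single knockdowns overlapped control, while SAFB1 KD lay just below SLTM KD. The log2 fold change in triple KD was -0.26 ± 0.0287 (adjusted p = 7.23e-12), whereas SAFB1 KD gave -0.06 ± 0.0283 (adjusted p = 0.250) and SLTM KD 0.005 ± 0.0283 (adjusted p = 0.959).

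PPHLN1 encodes periphilin, the RNA-binding subunit of HUSH. It spans chr12:42238447-42459715 on the + strand. Its level was 95.9, 100.1 and 97.2 CPM in control and 102 CPM in each of the 3 triple KD libraries, without overlap between the groups, but the difference did not pass the test (log2 fold change 0.06 ± 0.0256, adjusted p = 0.0538). It passed with the replicate number as a block (0.06, adjusted p = 0.0225), which makes 8 called members in triple KD. In SAFB1 KD, at 102, 102 and 106 CPM, it passed with a log2 fold change of 0.08 ± 0.0256 (adjusted p = 0.0376), and in SLTM KD, at 96.2, 93.4 and 99.5 CPM, it overlapped control.

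The 3 core subunits therefore did not change alike in triple KD: TASOR rose, MPHOSPH8 fell and PPHLN1 did not pass the test. The ratio of their counts within a library compares them free of library scaling. MPHOSPH8 had 0.816 ± 0.0265 counts for each TASOR count in control (SD, n = 3), 0.783 ± 0.0264 in SAFB1 KD, 0.776 ± 0.00904 in SLTM KD, but only 0.580 ± 0.0143 after triple KD. The triple KD range of 0.570 to 0.596 lay wholly below the range of the other 9 libraries, 0.753 to 0.838. PPHLN1 to TASOR went from 1.18 ± 0.0243 in control to 1.05 ± 0.0297 in triple KD, also without overlap, and was 1.24 ± 0.0353 in SAFB1 KD and 1.10 ± 0.0547 in SLTM KD. No test was run on these ratios, and an exact permutation test of 3 libraries against 3 cannot go below 0.10.

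**Figure D2:**
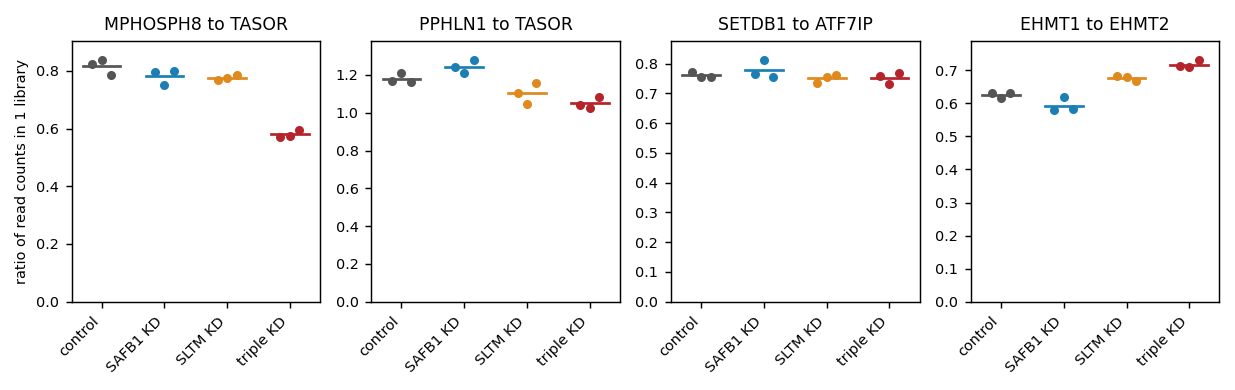
Ratio of read counts of 2 genes within each library (y axis, from 0) by group (x axis). Points are libraries and lines are means (n = 3). MPHOSPH8 to TASOR dropped in triple KD to 0.570 to 0.596, SETDB1 to ATF7IP overlapped in all groups, and EHMT1 to EHMT2 was highest in triple KD.

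MORC2, SETDB1 and ATF7IP, the partners that act with HUSH, rose together in triple KD. MORC2, an ATPase that compacts chromatin (chr22:30925130-30968774, - strand), was at 101, 103 and 103 CPM in control, 106, 109 and 111 in SAFB1 KD, 109, 105 and 107 in SLTM KD, but 123, 126 and 124 CPM after triple KD. It had the largest rise of the members, with a log2 fold change of 0.28 ± 0.0242 (adjusted p = 1.31e-15), and all 3 knockdown groups lay above the control libraries. SAFB1 KD passed the test at 0.09 ± 0.0244 (adjusted p = 0.00981), and SLTM KD, at 0.07 ± 0.0245 (adjusted p = 0.0660), did not.

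SETDB1, the enzyme that trimethylates H3K9 in this pathway (chr1:150926263-150964744, + strand), was at 76.0, 74.6 and 75.6 CPM in control and at 89.0, 89.1 and 90.3 CPM in triple KD (log2 fold change 0.25 ± 0.0266, adjusted p = 4.91e-12). ATF7IP, which binds SETDB1 and keeps it stable in the nucleus (chr12:14365676-14502931, + strand), was at 98.4, 98.7 and 100.2 CPM in control and at 117, 122 and 118 CPM in triple KD (0.26 ± 0.0240, adjusted p = 1.32e-14). The 2 partners kept the same proportion, with a SETDB1 to ATF7IP count ratio of 0.761 ± 0.00983 in control and 0.752 ± 0.0188 in triple KD, overlapping in all 4 groups. In the single knockdowns both lay slightly above control without passing the test. SETDB1 had log2 fold changes of 0.07 in SAFB1 KD (adjusted p = 0.121) and 0.04 in SLTM KD (adjusted p = 0.515), and ATF7IP had 0.03 (adjusted p = 0.489) and 0.06 (adjusted p = 0.170).

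TRIM28 (KAP1) brings SETDB1 to sites bound by KRAB zinc finger proteins and lies at chr19:58544064-58550722 on the + strand. It had 905, 900.3 and 915 CPM in control, 938, 964 and 932 in SAFB1 KD, 899, 892 and 925 in SLTM KD, with 955, 948 and 946 CPM after triple KD. The triple KD and SAFB1 KD libraries were all above control, and SLTM KD overlapped it. The differences were small, with log2 fold changes of 0.07 ± 0.0176 in triple KD (adjusted p = 0.00123), 0.06 ± 0.0176 in SAFB1 KD (adjusted p = 0.0186) and -0.001 ± 0.0176 in SLTM KD (adjusted p = 0.982).

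EHMT1 (GLP) and EHMT2 (G9a) are related enzymes that work as a heterodimer and place the mono- and dimethyl forms of H3K9me, and their RNAs did not move together. EHMT1 (chr9:137618992-137870016, + strand) was at 82.3, 81.4 and 83.9 CPM in control, 81.4, 86.0 and 80.3 in SAFB1 KD, 85.6, 84.3 and 86.5 in SLTM KD, whereas triple KD gave 92.6, 95.0 and 93.7 CPM. It rose in triple KD by 0.18 ± 0.0263 on the log2 scale (adjusted p = 2.02e-08) and passed in neither single knockdown. EHMT2 (chr6:31879759-31897698, - strand) was at 130.3, 132 and 133 CPM in control, 140.3, 139 and 138 in SAFB1 KD, 125, 124 and 129 in SLTM KD, with 129.9, 134 and 128 CPM after triple KD. SAFB1 KD was thus the highest group and SLTM KD lay below control, without overlap, while triple KD overlapped control. EHMT2 rose in SAFB1 KD by 0.08 ± 0.0234 (adjusted p = 0.0208), had a log2 fold change of -0.06 ± 0.0236 in SLTM KD (adjusted p = 0.0873), and in triple KD gave -0.01 with a 95% interval of -0.06 to 0.04 (adjusted p = 0.752).

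The count ratio of EHMT1 to EHMT2 ordered all groups but SAFB1 KD and control. It was 0.593 ± 0.0214 in SAFB1 KD, 0.626 ± 0.00835 in control, 0.677 ± 0.00813 in SLTM KD, with 0.718 ± 0.0119 after triple KD. The libraries of SLTM KD and triple KD overlapped with no other group. SUV39H1, which places the trimethyl mark at pericentromeric heterochromatin (chrX:48695554-48709016, + strand), had the lowest F of the 10 for a difference among groups, 2.94. It was at 62.4, 64.3 and 62.0 CPM in control and 63.7, 63.3 and 63.3 CPM in triple KD, and its log2 fold change of 0.01 had a 95% interval of -0.04 to 0.07 (adjusted p = 0.797). Over any difference among the 4 groups, 9 of the 10 members passed the F test, against 44.8% of all genes tested, and SUV39H1 (adjusted p = 0.0842) did not. The share among genes whose mean reached 10 CPM was not taken for this test. Triple KD against control alone called 71.2% of those genes, so 9 in 10 cannot be read as a result about the members.

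**Figure D3:**
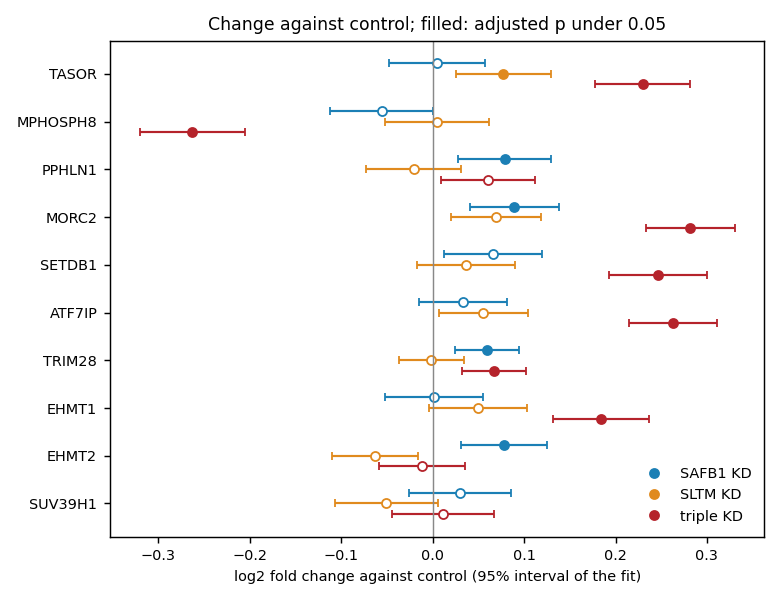
Log2 fold change against control (x axis) of the 10 genes in the 3 knockdown groups, with the 95% interval of the edgeR fit. Filled points passed an adjusted p under 0.05. Triple KD passed for 7 genes, SAFB1 KD for 4 and SLTM KD for 1.

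In SAFB1 KD, 4 members were called and all were higher: PPHLN1, MORC2, TRIM28 and EHMT2. The background was 9.66% of all genes and 20.5% of those whose mean reached 10 CPM, of which 11.9% were higher and 8.64% lower. These changes were at most 1.06-fold, and none of the 4 calls was kept under every alternative fit. Without any 1 of the 3 control libraries, 0 members were called by edgeR, although 4 or 5 had an unadjusted p under 0.05. In SLTM KD only TASOR was called, and it was higher, against 9.26% of all genes and 20.2% of those of similar level, of which 6.85% were higher and 13.4% lower. That call was lost in 12 of 20 alternatives, among them those without any 1 of the 3 control libraries, without SLTM KD replicate 1 or 2, and limma-voom.

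Between knockdowns, triple KD differed from SAFB1 KD in 7 members (background 34.9%, and 65.1% of genes of similar level, 27.6% higher and 37.5% lower). TASOR, MORC2, SETDB1, ATF7IP and EHMT1 were higher in triple KD, by 0.18 to 0.23 on the log2 scale, MPHOSPH8 was lower (-0.21 ± 0.0291, adjusted p = 1.79e-08), and EHMT2 was lower (-0.09 ± 0.0236, adjusted p = 0.00140). Against SLTM KD, triple KD differed in 8 members (background 36.3%, and 66.2% at similar level, 33.5% higher and 32.7% lower), namely the same 6 with PPHLN1 and TRIM28 higher in place of EHMT2. The PPHLN1 call was lost without SLTM KD replicate 2 (adjusted p = 0.0656). With the replicate number as a block, EHMT2 was also called higher (0.05, adjusted p = 0.0468), for 9 members. SAFB1 KD and SLTM KD differed in 5 members (background 16.0%, and 33.5% at similar level, 22.2% higher and 11.2% lower). EHMT2 had the largest difference, higher in SAFB1 KD by 0.14 ± 0.0237 on the log2 scale (adjusted p = 6.31e-06), and it was the only 1 of the 5 called under every alternative. PPHLN1, TRIM28 and SUV39H1 were higher in SAFB1 KD by 0.06 to 0.10, and TASOR was lower by 0.07.

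Triple KD departed from the sum of SAFB1 KD and SLTM KD, on the log2 scale, in 6 members, against 21.4% of all genes and 44.6% of those of similar level, of which 19.6% went above and 25.0% below. TASOR (0.15 ± 0.0369), MORC2 (0.12 ± 0.0345), SETDB1 (0.14 ± 0.0380), ATF7IP (0.17 ± 0.0343) and EHMT1 (0.13 ± 0.0376) went above the sum, with adjusted p from 5.26e-05 to 0.00563. MPHOSPH8 went below it (-0.21 ± 0.0406, adjusted p = 3.38e-05). PPHLN1, TRIM28, EHMT2 and SUV39H1 had departures between -0.03 and 0.03 that did not pass. Because triple KD also lowered SAFB2, the loss of SAFB2 and a response that is more than additive cannot be told apart.

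**Figure D4:**
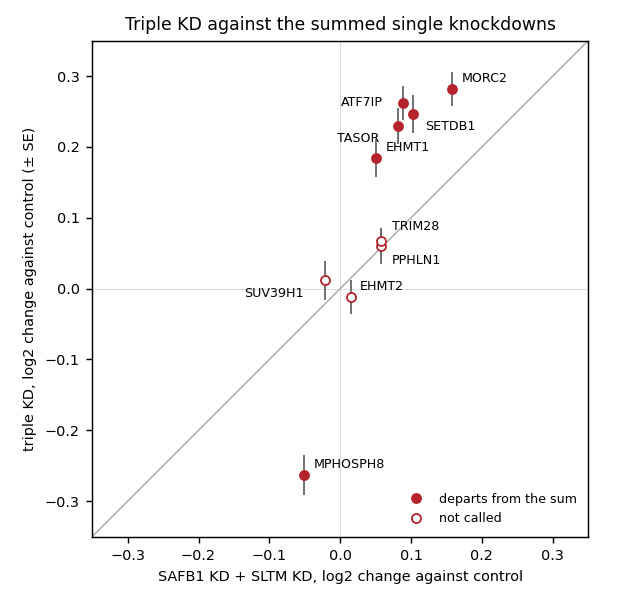
Log2 change in triple KD (y axis, ± SE) against the summed log2 changes of SAFB1 KD and SLTM KD (x axis) for the 10 genes, with the line of equality. Filled points departed from the sum at an adjusted p under 0.05: 5 genes lie above the line and MPHOSPH8 lies below it.

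Over the 12 libraries the 5 genes that rose most in triple KD had similar profiles. The 10 pairs among TASOR, MORC2, SETDB1, ATF7IP and EHMT1 had Pearson correlations of log2 CPM of 0.879 to 0.963, and MPHOSPH8 had correlations of -0.963 to -0.838 with each of them. The points share their libraries and the 4 groups, so these values describe the groups and carry no test. Among 9929 genes with a symbol and a mean that reached 10 CPM, those most like TASOR were SFMBT1 (0.985), USP4 (0.984) and PRRC2C (0.984), and those most opposed were DPH1 (-0.984), TPI1 (-0.978) and FAM83D (-0.976). PRRC2C, for example, had 395 ± 0.927 CPM in control, 394 ± 3.97 in SAFB1 KD, 427 ± 5.86 in SLTM KD, with 523 ± 7.89 CPM after triple KD, with SLTM KD between and triple KD highest, as in TASOR. Most like MPHOSPH8 were NEMF (0.984), NSUN6 (0.984) and SCFD1 (0.983), and most opposed were COMMD4 (-0.987), ZNF787 (-0.984) and SLC19A1 (-0.981).

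The word GAAGAA, a purine-rich sequence of the kind SAFB proteins prefer, was counted on the sense strand of the canonical coding sequences. MPHOSPH8, the member that fell, had the densest coding sequence with 12 words, or 4.65 per kb, a density above that of 95.9% of 16010 protein-coding genes (median 0.896 per kb). Its coding sequence was also rich in A, at 35.9%, above 96.7% of genes. The same held for PPHLN1 (33.2%, above 90.4%), which was not called, and for TASOR (33.0%, above 90.0%) and ATF7IP (31.3%, above 83.3%), which rose. The remaining members ranged from 19.4% (TRIM28) to 27.0% (MORC2). MPHOSPH8 was thus the highest of the 10 genes in A content as well as in word density. Whether either bears on its fall was not tested. PPHLN1 had 2.72, TASOR 2.40 and EHMT2 2.20 words per kb, ATF7IP 1.84, MORC2 1.61, SETDB1 0.774 and EHMT1 0.770, and TRIM28 and SUV39H1 had none. Over the unspliced gene, MORC2 was densest, with 42 words on the sense strand and 11 on the other, or 0.962 per kb against a median of 0.452, above 97.0% of genes. With 10 genes these densities are a description, and no binding was measured in these libraries.

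The stretches below are the first 30 coding bases that hold the most copies of the word in the 2 genes with the densest coding sequence, and capitals mark GAAGAA.
MPHOSPH8: agcactgaggagttggccgaagtcGAAGAA
PPHLN1: agggccgcagtttttctcatgatcGAAGAA
They lie at chr13:19633806-19633835 (+ strand, exon 1) and chr12:42352000-42352029 (+ strand, exon 3), respectively, on GRCh38. The coding sequence of MPHOSPH8 held 12 copies, with at most 1 in any 30 bases.

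The wider pathway was read from 8 lists of 63 genes, of which 62 were tested. In triple KD 32 were higher, 16 lower and 14 not called, with a median log2 fold change of 0.07 beside -0.004 over all genes. In SAFB1 KD the counts were 12, 5 and 45, where 9.66% of all genes and 20.5% of those whose mean reached 10 CPM were called. In SLTM KD they were 8, 10 and 44, where 9.26% and 20.2% were called. Of the 6 HUSH-linked and MORC genes, MORC1 had too few counts to be tested. Among the other 5, 4 rose in triple KD and 1 fell. ZNF638, a DNA-binding protein that brings HUSH to unintegrated retroviral DNA, had a log2 fold change of 0.46 ± 0.0234 (adjusted p = 6.92e-26), and it had risen nearly as much in SAFB1 KD, by 0.42 (adjusted p = 1.49e-22). MORC4 rose by 0.18, and TASOR2, the paralogue of TASOR, by 0.10.

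The partners of G9a and GLP had the highest median of these lists, 0.28, with 4 of 5 higher and none lower. ZNF462 rose by 0.52 ± 0.0403, CDYL2 by 0.51 ± 0.0392 and WIZ, which stabilises the G9a and GLP dimer, by 0.28 ± 0.0231 on the log2 scale. Other H3K9 methyltransferases were mixed, with MECOM higher (0.32) and PRDM16 (-0.47) and SETDB2 (-0.23) lower among 5. HP1 proteins, the readers of the mark, and their partners were split 4 higher and 4 lower of 11. CBX1 (HP1 beta) rose by 0.33 ± 0.0233, whereas the remodellers ATRX (-0.34 ± 0.0228) and SMARCAD1 (-0.33 ± 0.0297) fell.

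Genes that remove the mark or act beside it included the largest changes of the lists. Of 11 H3K9 demethylases, 6 rose and 3 fell. KDM3A had 42.8 to 43.7 CPM in the control libraries and 72.7 to 73.8 CPM in triple KD, a log2 fold change of 0.76 ± 0.0298 (adjusted p = 2.13e-31), PHF2 rose by 0.37 and KDM4B fell by 0.31. Of 10 DNA methylation genes, 5 rose and 1 fell. DNMT3B, a de novo DNA methyltransferase, had 16.9 to 18.0 CPM in control, 18.4 to 19.1 in SAFB1 KD, 17.9 to 19.3 in SLTM KD, but 50.6 to 51.4 CPM after triple KD. Its libraries in triple KD lay far above all others, with a log2 fold change of 1.56 ± 0.0378 (adjusted p = 2.95e-42), of which 1.36 went beyond the sum of the single knockdowns. DNMT1 (0.16) and TET3 (0.24) rose less.

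The cofactors through which TRIM28 works, the SUMO pathway and the NuRD deacetylase, were all called, 7 higher and 5 lower of 12. RBBP7, a histone-binding subunit of NuRD, fell by 0.45 ± 0.0182 on the log2 scale (adjusted p = 1.58e-30), and the deacetylase HDAC1 rose by 0.26 ± 0.0201 (adjusted p = 2.91e-17). Of the 3 other bromodomain TRIM proteins, TRIM24 rose by 0.18 and the other two were not called. The lists were given no test of their own, and in triple KD they should be read against the 40.3% called among all genes and the 71.2% among genes whose mean reached 10 CPM.

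**Figure D5:**
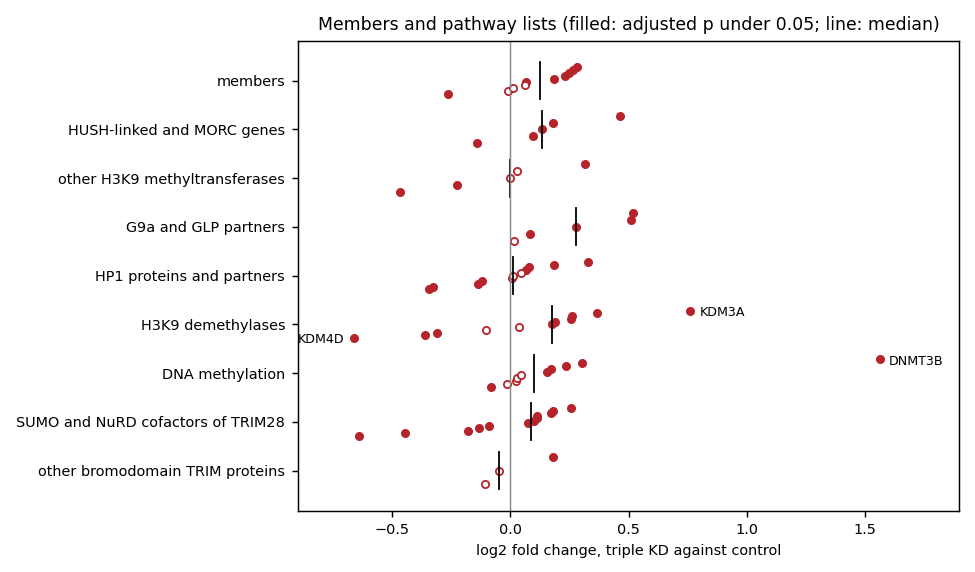
Log2 fold change of triple KD over control (x axis) for each tested gene in the 10-member set and the 8 pathway lists (rows), with list medians as lines. Filled points passed an adjusted p under 0.05, and genes beyond 0.65 in either direction are named: DNMT3B reached 1.56 and KDM3A 0.76, while KDM4D was at -0.66.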

How the data were processed

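Poly(A) RNA was selected and made into strand-specific libraries, and groups and replicate numbers were taken from the sample titles. Per the labels and the study's methods, the authors aligned reads to GRCh38 with STAR 2.7.9a and counted uniquely placed reads per gene on the strand of the transcript; the deposited values are raw counts, not normalised and not pooled. Of the 58780 gene IDs, 58207 were found in GENCODE v44, which supplied names and positions.

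Genes with at least 10 counts over the 12 libraries (26688) were fitted with edgeR 4.0.16 (R 4.3.3; TMM, quasi-likelihood F test, group as the only term), with Benjamini-Hochberg adjustment over all of them and a threshold of 0.05. The common biological coefficient of variation was 2.14%. CPM were scaled by TMM, and correlations used log2 CPM with a prior count of 2. The fit was tested on simulated data. The labels call the replicates biological without naming separate cultures, so p-values measure the spread between these samples. The members and lists were chosen with earlier results of these data known. Named genes were all members, the siRNA targets, the 3 called genes with the smallest adjusted p in triple KD of each list, genes nested on a member's strand, and the 3 genes most and least correlated with TASOR and MPHOSPH8; KDM4D was named after its value was seen, and some items that the rule names are not reported here. Alternatives were RLE or upper-quartile scaling, other filters, only the libraries compared, DESeq2 1.42.0, limma 3.58.1 (voom), a replicate block and each library left out. Groups were taken as paired where the deviations of all 3 same-numbered library pairs correlated above 0.1, which held for control with triple KD (0.144 to 0.179) and SLTM KD with triple KD (0.109 to 0.262) and for no other of the 6 group pairs. The labels do not say what a shared number marks. Stretches and positions were read from GRCh38, and siRNA sequences from the study's oligo list.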

Additional observations from a re-analysis of the deposited data

How the results depend on the processing

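In triple KD against control all 7 member calls, and in the test beyond the sum all 6, were kept with their direction under every alternative run (20 and 19). Leaving out 1 library gave 7 to 8 and 6 to 6 members, respectively, and PPHLN1 was gained in 10 alternatives. Against SAFB1 KD the leave-out counts were 7 to 7 and against SLTM KD 7 to 10, with EHMT2 lost against SAFB1 KD under upper-quartile scaling (adjusted p = 0.0561). The single knockdowns were less stable. Members called in SAFB1 KD fell from 4 to 1 without a filter and ranged from 0 to 4 with 1 library left out: 0 without any control library, and 1 or 2 without any SAFB1 KD library, SLTM KD replicate 2, or triple KD replicate 1 or 2. In SLTM KD, 1 member became 3 under upper-quartile scaling, 2 with filterByExpr, 0 with only the libraries compared, 2 with DESeq2, 0 with limma-voom and 0 to 2 with 1 library left out, the 0 arising without any control library or without replicate 1 or 2 of SAFB1 KD, SLTM KD or triple KD and the 2 without SLTM KD replicate 3, and where 0 were called, 3 to 5 had an unadjusted p under 0.05. SAFB1 KD against SLTM KD went from 5 to 3 without a filter and to 3 with only the libraries compared, and ranged from 1 to 5 with 1 library left out, with 3 or fewer without any SAFB1 KD library or SLTM KD replicate 1 and the lowest without SLTM KD replicate 2. The cause was not tested. Upper-quartile scaling moved the share of all calls that were higher from 38.9% to 57.5% in SLTM KD and from 57.8% to 43.2% in SAFB1 KD against SLTM KD. No called value changed sign; members that were not called and lay near 0 did so in some alternatives.

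Over all groups, same-numbered libraries had correlated deviations above 0.1 in 13 of 18 pairs (-0.0461 to 0.262), against 1 of 36 pairs with different numbers, and 11 of 12 libraries were closest to a library of their own number. In the group pairs that did not meet the pairing rule, a replicate block gave 3 called members in SLTM KD (MORC2 and EHMT2 gained) and 4 in SAFB1 KD against control, 7 in triple KD against SAFB1 KD and 5 in SAFB1 KD against SLTM KD. In those that met it, the block gained PPHLN1 in triple KD against control (8 members) and EHMT2 in triple KD against SLTM KD (9 members), and changed no other member call.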

Other observations

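Of 14 genes on the opposite strand of a member, 10 were tested, and in triple KD 4 were higher, 2 lower and 4 not called. Among all genes tested, 40.3% were called in this comparison, 19.4% higher and 20.9% lower, and 71.2% of those whose mean reached 10 CPM. Those named here were chosen after their values were seen. CERS2, which overlaps SETDB1 over 948 exonic bases, was the most abundant, with 256 ± 2.50 CPM in control (SD, n = 3) and 228 ± 1.55 CPM in triple KD, and it fell (log2 fold change -0.17 ± 0.0201, edgeR, adjusted p = 1.27e-10) where SETDB1 rose. CCDC66, opposite TASOR, had 22.2 ± 0.691 and 23.8 ± 0.108 CPM and was not called (0.10 ± 0.0454, adjusted p = 0.0762). EHMT2-AS1, which overlaps EHMT2 over 592 exonic bases, had 0.163 ± 0.101 CPM in control (SD, n = 3; 3 to 18 counts per library), 0.331 ± 0.0513 in SAFB1 KD, 0.360 ± 0.0840 in SLTM KD, with 0.591 ± 0.197 CPM after triple KD (21 to 47 counts). Control and triple KD did not overlap, and the log2 fold change was 1.82 ± 0.319 (edgeR, adjusted p = 2.40e-06), with 1.09 ± 0.354 in SLTM KD (adjusted p = 0.0387). The lncRNA ENSG00000232828, opposite SUV39H1, had 18 to 21 counts in the control libraries and 32 to 49 in triple KD, a log2 fold change of 1.19 ± 0.285 (adjusted p = 3.73e-04). The pseudogene transcript ENSG00000255585, opposite EHMT1, had 6 to 11 and 11 to 34 counts (1.23 ± 0.412, adjusted p = 0.0119), and MORC2-AS1, at 0 to 10 counts, was not called (adjusted p = 0.422). Apart from CERS2 and CCDC66 these counts are low, the libraries are strand-specific, and no alternative was run for these genes.

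PPHLN1 had the most overlapping genes of the members, and those with a change are named here after their values were seen. The lncRNA ENSG00000274943, in a PPHLN1 intron on the same strand, fell from 0.951 ± 0.0566 to 0.697 ± 0.0452 CPM (log2 fold change -0.45 ± 0.181, adjusted p = 0.0409), and the same-strand lncRNA ENSG00000257225, which overlaps PPHLN1 at its 3′ end, went from 1 to 12 counts per library in control to 11 to 23 in triple KD (1.44 ± 0.469, adjusted p = 0.00968). On the opposite strand, PRICKLE1 rose by 0.52 ± 0.0348 (adjusted p = 3.15e-20) and ZCRB1 fell by 0.23 ± 0.0277 (adjusted p = 1.55e-10). Of the other 6 genes annotated in a member intron on its strand, 5 were at or near 0, with 7 counts over all libraries for ENSG00000257674, 4 for MIR602, 1 for Y_RNA and 0 for MIR6807 and RNU6-249P, and ENSG00000290040 was not analysed here.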
